A study of Caenorhabditis elegans with 18 samples.

Results

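The genes for secreted signalling peptides were followed over 5 small molecules in whole Caenorhabditis elegans. They were the probe sets whose annotated gene symbols all began with flp- (FMRFamide-like peptide precursors), ins- (insulin-like peptides) or nlp- (neuropeptide-like protein precursors). The series nlp-24 to nlp-34, which holds peptides of the epidermal antimicrobial response, was left out (10 probe sets). This gave 108 probe sets of 96 genes among 22548 probe sets tested. The flp genes had 32 probe sets (25 of the 31 flp genes in the RefSeq table), the ins genes 24 (23 of 38 genes) and the nlp genes 52 (48 of 67 genes).

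Neuropeptide genes code for precursors that are cut at basic residues by proprotein convertases, trimmed by a carboxypeptidase, often amidated at the carboxyl end, packed into dense core vesicles and released. The flp and nlp peptides act mainly on G protein-coupled receptors, and they modulate locomotion, feeding, egg laying, sleep and metabolism in the worm. The insulin-like peptides act, as agonists or antagonists, on the single insulin receptor DAF-2, which restrains the transcription factor DAF-16. Several of these genes are also expressed outside the nervous system, in the intestine above all.

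The study searched for compounds that raise the resistance of worms to pathogens. Wild-type N2 animals were grown on E. coli OP50 for 56 h at 22 °C to young adulthood, moved to S Basal with OP50 in wells of 6000 worms, and given 100 µM LK32, LK34, LK35, LK38 or LK56, or DMSO solvent, for 8 h. RNA of whole animals was hybridised to Affymetrix arrays, 3 arrays (A, B and C) for each of the 6 groups, described as biological replicates. The p-values measure the spread between these cultures, in an estimate pooled over the groups. Groups that hold a repeated low value make that estimate smaller. The labels name no pathogen for these groups. In RNA from whole animals, a change in the number of cells of a type and a change in RNA per cell cannot be told apart.

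Values are deposited intensities after GCRMA, on a linear scale. Arrays correlated with the others of their group at a mean r of 0.954 to 0.986 on the log2 scale, lowest for LK38 C, LK32 C and LK35 A. On each array 46.3% to 49.4% of values lay at the floor of 4.605, where no signal was told from background. Of all values 59.5%, and of those of the peptide genes 65%, recurred exactly on another array for the same probe set, so repeated values below are as deposited.

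Most peptide genes were dim. A total of 30 of the 108 probe sets lay at the floor on all 18 arrays (6 flp, 9 ins and 15 nlp), and 52 stayed within 2-fold of it (11 flp, 16 ins and 25 nlp). Only 23 had a mean log2 intensity above 5, of which 9 were flp, 2 ins and 12 nlp. For a probe set at the floor a fall could not be seen. The highest mean log2 intensities over the 18 arrays were 7.56 for flp-24, 7.48 for flp-10 and 7.46 for flp-6, 6.34 for ins-35, 5.73 for ins-7 and 4.92 for ins-23, and 11.65 for nlp-40, 10.62 for nlp-36 and 8.25 for nlp-7. These order the signals of different probes and not the amounts of RNA.

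**Figure D1:**
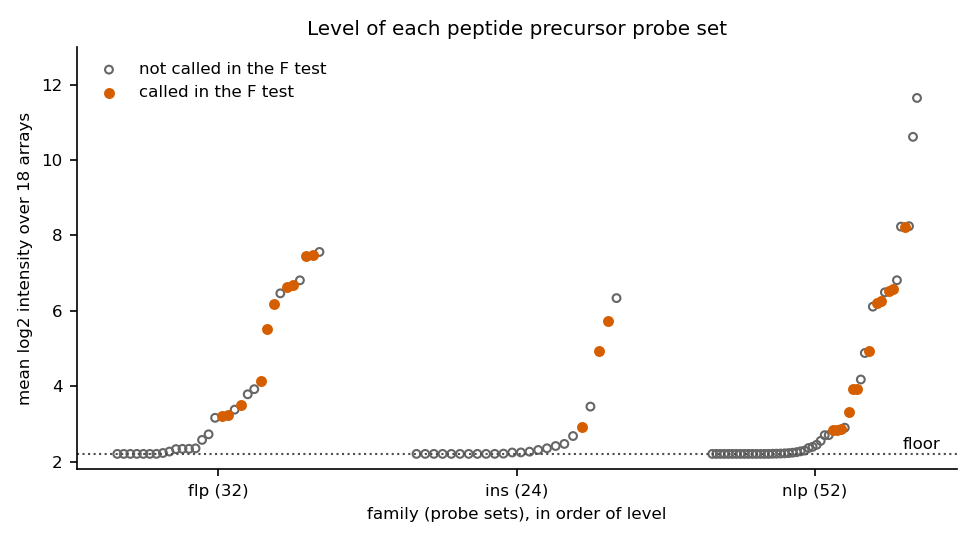
Mean log2 intensity over 18 arrays (vertical axis) of each of the 108 probe sets, ordered by level within the flp, ins and nlp families (horizontal axis), with filled points for the 25 called in the F test over the 6 groups and the dotted line at the floor. Many points lie on or near the floor, most of all in the ins family, and nlp-40 is the highest at 11.65.

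Across the 6 groups, 25 of the 108 probe sets (23.1%) differed by limma's F test at an adjusted p under 0.05, beside 10.6% of all probe sets tested. They were 10 of 32 flp, 3 of 24 ins and 12 of 52 nlp probe sets, and together they covered 24 genes because flp-15 was called with 2 probe sets. With LK32, 7 probe sets rose and 0 fell (over all probe sets 0.927% rose and 0.0133% fell). With LK56, 5 rose and 0 fell (0.767% and 0.0222%). With LK34, 2 rose and 5 fell (2.25% and 1.39%). With LK35, 1 rose and 7 fell (1.71% and 1.88%), and with LK38, 1 rose and 7 fell (2.19% and 1.58%). The 5 comparisons use the same 3 DMSO arrays, so they are not independent of each other. Of the 35 calls of named genes, 9 were kept in every alternative processing that tested the probe set. They were nlp-10 under LK34, LK35 and LK38, nlp-17 under LK34 and LK35, nlp-12 and flp-6 under LK34, flp-7 under LK56 and ins-23 under LK38. The alternative without probe sets of several transcripts did not test nlp-12 and flp-6. All other calls were lost in at least 1, in many cases in a fit of the 6 arrays compared alone.

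By family, 4 flp and 3 nlp genes rose with LK32, and 2 flp, 1 ins and 2 nlp genes rose with LK56. With LK35, as with LK38, 2 flp, 1 ins and 4 nlp genes fell and 1 flp gene rose. With LK34, 2 flp and 3 nlp genes fell and 1 flp and 1 ins gene rose. At an unadjusted p under 0.05 the counts higher and lower were 27 and 0 under LK32, 5 and 11 under LK34, 2 and 12 under LK35, 8 and 10 under LK38, and 20 and 0 under LK56. Over all probe sets the shares higher and lower at that threshold were 7.34% and 1.17%, 7.39% and 4.77%, 6.3% and 6.07%, 7.27% and 4.91%, and 10.5% and 0.794% in the same order. The arrays of 28 probe sets lay wholly above those of DMSO with LK32 and with LK56, and none lay wholly below. Over all probe sets the shares wholly above were 8.73% and 14.7%, and those wholly below 1.67% and 0.674%. With LK34, LK35 and LK38 the arrays of 12, 11 and 11 probe sets lay wholly below DMSO, beside 6.39%, 6.98% and 6.48% of all, and those of 5, 2 and 5 wholly above, beside 10.2%, 8.36% and 8.97%. Among the 23 brighter probe sets the median log2 difference from DMSO was 0.89 under LK32, -0.29 under LK34, -0.42 under LK35, -0.04 under LK38 and 0.51 under LK56, beside 0.11, 0.06, 0.04, 0.05 and 0.23 over all 8576 probe sets of that brightness.

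**Figure D2:**
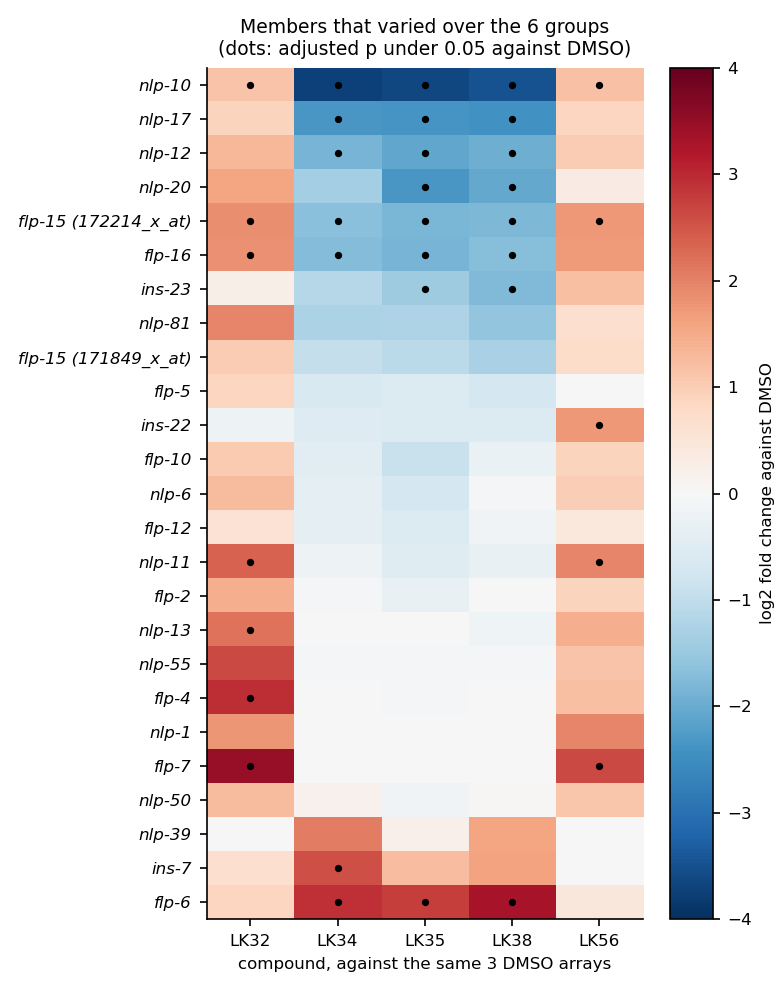
Log2 fold change against DMSO (colour, from -4 to 4) of the 25 probe sets called in the F test (rows) with each of the 5 compounds (columns), and a dot where the adjusted p was under 0.05. The columns of LK34, LK35 and LK38 hold falls in nlp-10, nlp-17 and nlp-12 and a rise in flp-6, and those of LK32 and LK56 hold rises in flp-7 and nlp-11.

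The clearest falls were in nlp genes. The precursor gene nlp-10 gave 84.9, 109.7 and 58.2 in the DMSO arrays. It gave 6.07, 6.10 and 6.23 under LK34, 6.48, 6.56 and 6.48 under LK35 and 9.68, 6.18 and 6.23 under LK38, and 186, 166 and 192 with LK32 and 165, 240.2 and 157 with LK56. All 9 arrays of LK34, LK35 and LK38 lay near the floor and far under the lowest DMSO array, while all 6 arrays of LK32 and LK56 lay above the highest. Against DMSO the log2 fold change was -3.73 under LK34, -3.65 under LK35 and -3.50 under LK38 (SE 0.23, adjusted p = 1.45e-06, 1.81e-06 and 1.88e-06), which is 13.3-fold, 12.5-fold and 11.3-fold lower. The gene rose with the other compounds: the log2 fold change was 1.15 under LK32 and 1.17 under LK56 (SE 0.23, adjusted p = 0.0329 and 0.0333). The treated values lay next to the floor, and with 16 added to each intensity the falls were -2.15, -2.12 and -2.07, still called. They were also called without any 1 array. The rise with LK32 missed the threshold without LK32 C, LK32 A, DMSO C or DMSO A (log2 fold change between 0.91 and 1.18, adjusted p between 0.0885 and 0.124). The rise with LK56 missed it without LK56 B, LK56 A, DMSO C or DMSO A (log2 fold change between 0.93 and 1.25, adjusted p between 0.0721 and 0.155). Both rises of nlp-10 were lost with each array centred on its brighter probe sets (adjusted p = 0.0736 and 0.145) and with quantile normalisation (0.242 and 0.307).

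The precursor gene nlp-17 followed with smaller falls. Its DMSO arrays read 218, 136 and 168, and the treated arrays read 42.1, 36.2 and 25.7 under LK34, 36.7, 35.5 and 27.7 under LK35 and 42.1, 29.9 and 25.7 under LK38. No treated array of these 3 groups reached the lowest DMSO value. Against DMSO the log2 fold change was -2.33 under LK34, -2.37 under LK35 and -2.42 under LK38 (SE 0.32, adjusted p = 0.00108, 0.00105 and 7.17e-04). With LK32 the arrays read 386, 343 and 237 and with LK56 189, 417 and 379. All LK32 arrays lay above the DMSO range, LK56 A lay within it, and neither difference passed the test: the log2 fold change was 0.89 under LK32 and 0.86 under LK56 (SE 0.32, adjusted p = 0.343 and 0.294).

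The gene nlp-12 codes for peptides related to cholecystokinin, made in the stretch-sensitive interneuron DVA, that tune locomotion. Its values were 121, 86.2 and 144 with DMSO and 31.1, 31.5 and 31.5 under LK34, 25.6, 30.5 and 25.6 under LK35 and 31.5, 31.5 and 25.6 under LK38. The 9 treated values sat in a narrow band, many of them the same deposited number, under every DMSO array. It fell with all 3 compounds: the log2 fold change was -1.87 under LK34, -2.08 under LK35 and -1.96 under LK38 (SE 0.31, adjusted p = 0.0043, 0.00213 and 0.00294). With LK32 it read 406, 389 and 153, and with LK56 203, 286 and 221, every array above the DMSO range without passing the test (adjusted p = 0.0821 and 0.18). Without LK32 C, the lowest array of its group, the LK32 difference passed at a log2 fold change of 1.79 (adjusted p = 0.00107). The nlp-12 probe set carries the suffix of sets that can bind several transcripts.

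The precursor gene nlp-20 read 456, 520.0 and 437 with DMSO. With the 3 compounds it read 230.5, 205 and 126 under LK34, 30.96, 208 and 129 under LK35 and 162, 93.9 and 93.9 under LK38, and the lowest of these, LK35 A, was far from the other arrays of its group. It fell with LK35 and LK38 but not by the test with LK34: the log2 fold change was -1.37 under LK34, -2.32 under LK35 and -2.06 under LK38 (SE 0.52, adjusted p = 0.248, 0.0278 and 0.0498). Leaving out DMSO A, DMSO B, DMSO C or LK35 C ended the LK35 call (adjusted p between 0.053 and 0.0974), and leaving out any of the 6 arrays ended the LK38 call (adjusted p between 0.0679 and 0.178). With LK32 nlp-20 read 1279, 1429 and 1513, all far above DMSO, at a log2 fold change of 1.58 that missed the threshold (SE 0.52, adjusted p = 0.275). This probe set too can bind several transcripts.

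**Figure D3:**
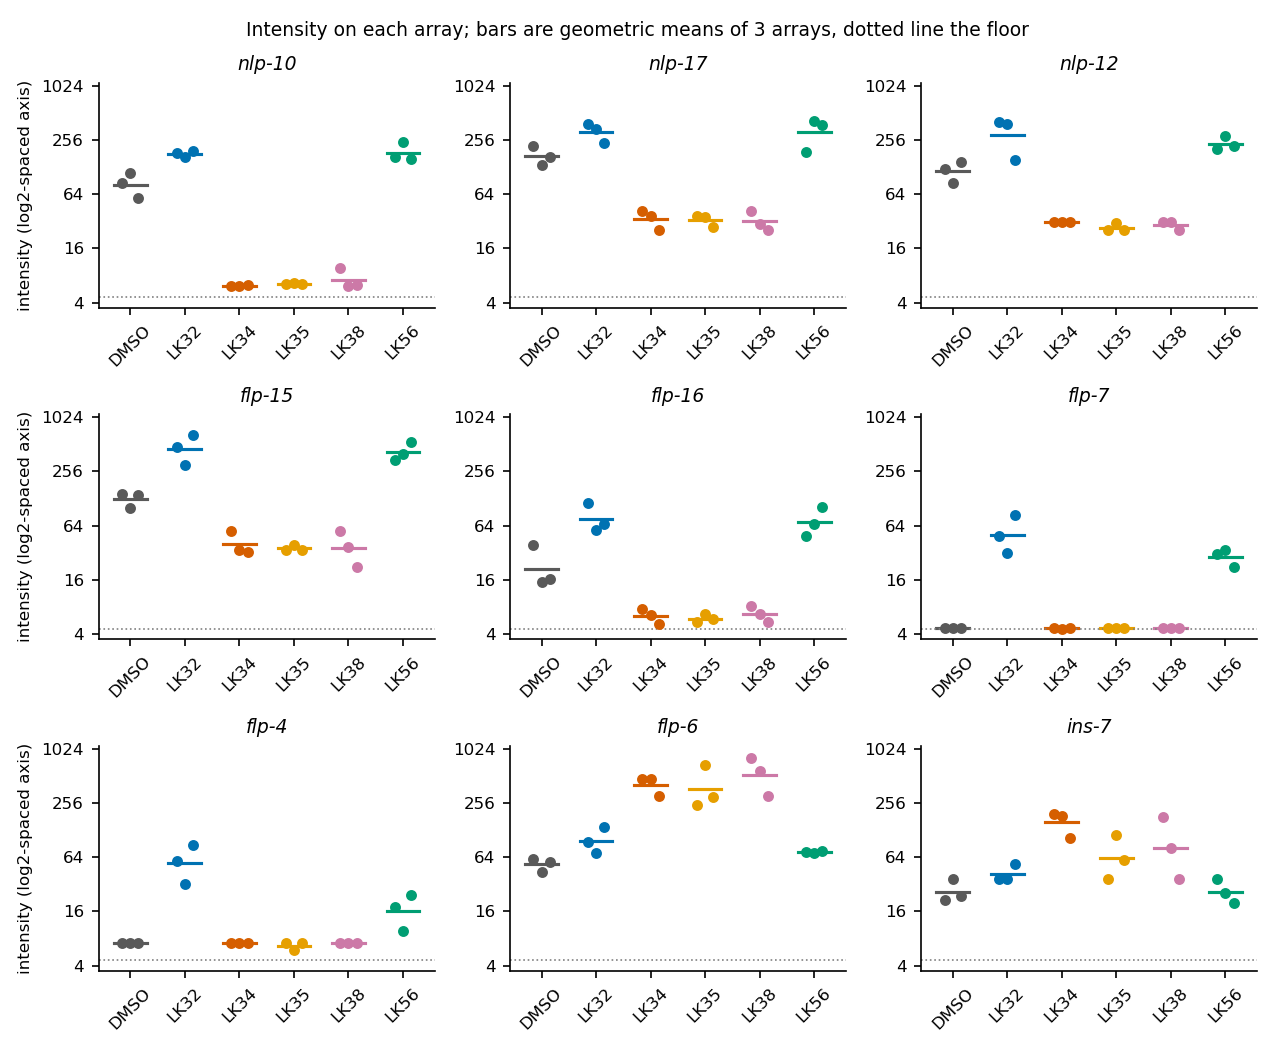
Intensity on each of the 18 arrays (points, on a logarithmic axis) for selected peptide genes in the 6 groups, with bars at the geometric mean of 3 arrays and a dotted line at the floor of 4.605. For nlp-10 the 9 arrays of LK34, LK35 and LK38 lie between 6.07 and 9.68, and all other arrays lie at 58.2 or above.

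In the flp family, flp-15 and flp-16 moved both ways. FLP-15 peptides are ligands of the receptor NPR-3. The probe set of flp-15 that was called gave 144, 99.8 and 139.6 with DMSO, 56.3, 34.3 and 32.3 under LK34, 34.4, 39.2 and 34.1 under LK35 and 56.1, 37.0 and 22.5 under LK38, and 478, 305 and 643 with LK32 and 340.0, 397 and 548 with LK56. The 5 treated groups did not overlap DMSO, 2 of them above and 3 below. Against DMSO the log2 fold change was 1.85 under LK32 and 1.73 under LK56 (SE 0.35, adjusted p = 0.0266 and 0.045), and the log2 fold change was -1.67 under LK34, -1.82 under LK35 and -1.81 under LK38 (SE 0.35, adjusted p = 0.019, 0.0115 and 0.0115). The calls were close to the threshold. The rise with LK32 was lost without LK32 C, LK32 A, DMSO C, DMSO B or DMSO A (log2 fold change between 1.60 and 1.94, adjusted p between 0.0645 and 0.133), and that with LK56 without any 1 of its 6 arrays (adjusted p between 0.0784 and 0.2). The fall with LK34 was lost without LK34 C, LK34 B, DMSO C or DMSO A (log2 fold change between -1.60 and -1.52, adjusted p between 0.0721 and 0.0872), that with LK35 without LK35 C or DMSO A (log2 fold change between -1.78 and -1.72, adjusted p between 0.051 and 0.0521), and that with LK38 without DMSO A (log2 fold change -1.71, adjusted p = 0.0502).

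A second probe set of flp-15 gave differences of the same directions and smaller size, with log2 fold changes of 1.01, -0.94, -1.07, -1.30 and 0.74 for LK32, LK34, LK35, LK38 and LK56 (SE 0.43), none called against DMSO. It was called in the F test over the 6 groups. Both this probe set and the called one carry the suffix of sets that can bind several transcripts. Their shared directions are therefore not independent evidence for flp-15. Another probe set of flp-15 lay at the floor on 17 arrays.

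The precursor gene flp-16 read 39.2, 15.2 and 16.5 with DMSO, with array A above the others, and 7.68, 6.45 and 5.19 under LK34, 5.38, 6.73 and 5.82 under LK35 and 8.17, 6.67 and 5.38 under LK38. With LK32 it read 116, 57.7 and 67.0 and with LK56 48.7, 66.5 and 103.97. Again the lower 3 groups lay wholly under DMSO and the upper 2 wholly over it. Against DMSO the log2 fold change was -1.75 under LK34, -1.85 under LK35 and -1.69 under LK38 (SE 0.38, adjusted p = 0.0234, 0.0177 and 0.0283), and the log2 fold change was 1.84 under LK32 and 1.70 under LK56 (SE 0.38, adjusted p = 0.0462 and 0.0707), so that the LK56 difference was not called. The fall with LK34 was lost without LK34 C, LK34 B or DMSO A (log2 fold change between -1.76 and -1.31, adjusted p between 0.08 and 0.0979), that with LK35 without LK35 C, LK35 A or DMSO A (log2 fold change between -1.83 and -1.41, adjusted p between 0.058 and 0.0693), and that with LK38 without LK38 C, LK38 B, LK38 A or DMSO A (log2 fold change between -1.84 and -1.25, adjusted p between 0.0514 and 0.0957). The rise with LK32 was lost without LK32 C, LK32 A, DMSO C or DMSO B (log2 fold change between 1.54 and 1.93, adjusted p between 0.103 and 0.22), and LK56 gained a call without DMSO A (2.14, adjusted p = 0.0184). With 16 added to each intensity the falls of flp-16 shrank to between -0.80 and -0.75 and were not called (adjusted p between 0.152 and 0.184).

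Other genes were called against DMSO only upward, from low values. The gene flp-7, whose peptides act in the worm on the receptor NPR-22 in fat metabolism, was listed at 4.61, next to the floor, on each DMSO array. It read 49.4, 32.2 and 83.1 with LK32 and 31.2, 34.2 and 22.3 with LK56, and stayed at 4.61 on every array of LK34, LK35 and LK38. It rose with both: the log2 fold change was 3.47 under LK32 and 2.64 under LK56 (SE 0.25, adjusted p = 2.57e-05 and 1.91e-04). Since the DMSO arrays lay at 4.61, 11.05-fold and 6.24-fold are ratios to a value next to the floor, and with 16 added to each intensity the log2 fold changes of flp-7 were 1.72 and 1.12, still called. Neither call depended on 1 array. The pooled SE includes groups whose arrays held the same value. In the fit of LK32 and DMSO alone the LK32 rise was not called (adjusted p = 0.166), while the LK56 call was kept in every alternative.

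The gene flp-4 read 7.05, 7.05 and 7.14 with DMSO and 57.7, 32.4 and 87.7 with LK32, and rose with LK32 alone: the log2 fold change was 2.95 under LK32 and 1.19 under LK56 (SE 0.33, adjusted p = 0.00103 and 0.156). With LK56 it read 17.8, 9.60 and 24.6, all above DMSO. The direct difference between LK32 and LK56 was 1.76 (1.04 to 2.48) on the log2 scale (95% interval, adjusted p = 0.0494). With 16 added to each intensity the rise of flp-4 with LK32 was 1.64, still called. In the fit of LK32 and DMSO alone that rise was not called (adjusted p = 0.215). With the other 3 compounds 8 of 9 arrays held the same value as the DMSO arrays A and B, 7.05.

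The precursor genes nlp-11 and nlp-13 also rose with LK32. For nlp-11 the arrays read 11.1, 9.46 and 10.8 with DMSO, 44.0, 30.5 and 114 with LK32 and 54.5, 38.1 and 31.9 with LK56, with both treated groups above DMSO, and the log2 fold change was 2.36 under LK32 and 1.96 under LK56 (SE 0.37, adjusted p = 0.00758 and 0.029). The LK56 rise was lost without LK56 B, LK56 A, DMSO C, DMSO B or DMSO A (log2 fold change between 1.74 and 2.00, adjusted p between 0.0744 and 0.127). With LK34, LK35 and LK38 nlp-11 stayed between 6.96 and 9.46, and all arrays of LK34 and LK35 lay below DMSO. With array weights the fall of nlp-11 with LK35 was called (log2 fold change -0.57, adjusted p = 0.0362). For nlp-13 the arrays read 6.74 on each DMSO array, 19.8, 18.2 and 76.8 with LK32 and 12.9, 23.5 and 20.4 with LK56. Here the log2 fold change was 2.17 under LK32 and 1.45 under LK56 (SE 0.42, adjusted p = 0.0319 and 0.169), and the LK32 call was lost without any 1 of the 3 DMSO arrays (adjusted p between 0.0936 and 0.118). With 16 added to each intensity, nlp-11 under LK56 (1.10, adjusted p = 0.105) and nlp-13 under LK32 (1.09, adjusted p = 0.121) were not called. In the fit of LK32 and DMSO alone neither LK32 rise was called (adjusted p = 0.421 for nlp-11 and 0.589 for nlp-13). The highest value of both genes was on LK32 C, an array that correlated less with its group. Among the other genes called with LK32, flp-7, flp-4 and flp-15 also had their highest value there, flp-16 on LK32 A and nlp-10 on LK56 B.

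One flp gene moved the other way. The gene flp-6, expressed in sensory neurons that include the thermosensory AFD, read 61.7, 44.1 and 56.4 with DMSO and 474, 473 and 302 under LK34, 246, 671 and 299.7 under LK35 and 819, 581 and 305 under LK38. Every one of these 9 arrays lay far above the DMSO range. It rose with all 3 compounds: the log2 fold change was 2.93 under LK34, 2.78 under LK35 and 3.30 under LK38 (SE 0.41, adjusted p = 0.00116, 0.0019 and 4.19e-04), that is 7.62-fold, 6.86-fold and 9.83-fold. With LK32 it read 93.2, 71.1 and 137 and with LK56 72.6, 71.2 and 74.7, above DMSO on every array but not past the threshold, since the log2 fold change was 0.86 under LK32 and 0.44 under LK56 (SE 0.41, adjusted p = 0.622 and 0.922). No call of flp-6 depended on 1 array, but its single probe set can bind several transcripts. In the fits of a compound and DMSO alone the rises with LK35 and LK38 were not called (adjusted p = 0.108 and 0.0731). The gene flp-6 was the only member called higher with all of LK34, LK35 and LK38. The brighter probe set of nlp-99 read 180, 187 and 164 with DMSO and 623, 527 and 273 under LK34. It read 209, 469 and 245 under LK35 and 722, 564 and 239 under LK38. Its arrays of every compound, LK32 and LK56 included, lay above DMSO, but it was not called (F test, adjusted p = 0.301). On the other probe set of nlp-99, also not called, LK35 A lay at the floor.

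Of the insulin-like genes 3 were called against DMSO. The gene ins-7, which codes for an agonist of DAF-2 expressed in neurons and intestine, read 21.3, 36.6 and 23.5 with DMSO and 195, 186 and 106 with LK34. It read 36.6, 113 and 59.0 with LK35, 178, 80.4 and 36.6 with LK38, 36.6, 36.6 and 53.6 with LK32 and 36.6, 25.3 and 19.8 with LK56, and the value 36.6 recurred in 5 of the 6 groups. Only the LK34 arrays lay wholly above DMSO, and ins-7 rose with LK34: the log2 fold change was 2.57 under LK34, 1.24 under LK35 and 1.61 under LK38 (SE 0.54, adjusted p = 0.0187, 0.349 and 0.158). Leaving out LK34 B, LK34 A, DMSO C or DMSO A (log2 fold change between 2.41 and 2.49, adjusted p between 0.0681 and 0.0826) ended the call, and leaving out LK38 C gave one for LK38 (2.18, adjusted p = 0.0315). The LK34 and LK35 values differed by 1.32 (0.15 to 2.49) on the log2 scale (95% interval), which was not called.

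The gene ins-22 codes for an insulin-like peptide whose tagged form is used to mark dense core vesicles. It read 7.06, 7.13 and 8.85 with DMSO and 18.98, 17.8 and 48.2 with LK56, and between 5.10 and 7.33 on all 12 arrays of the other compounds. It rose with LK56 at a log2 fold change of 1.73 (SE 0.27, adjusted p = 0.012), and the call was lost without DMSO B or DMSO A (log2 fold change between 1.67 and 1.68, adjusted p between 0.0514 and 0.0594). It was also lost with quantile normalisation (1.42, adjusted p = 0.12), and with 16 added to each intensity it was 0.84 (adjusted p = 0.05). With LK32 the difference from DMSO was -0.21, and LK32 minus LK56 was -1.94 (-2.54 to -1.34) on the log2 scale (95% interval, adjusted p = 0.00577).

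For ins-23 the arrays read 34.4, 42.1 and 52.7 with DMSO and 21.6, 21.6 and 14.9 under LK34, 21.6, 16.1 and 11.8 under LK35 and 13.1, 12.4 and 11.8 under LK38, all 9 under the lowest DMSO array. It fell with LK35 and LK38, and the LK34 difference missed the threshold: the log2 fold change was -1.15 under LK34, -1.41 under LK35 and -1.77 under LK38 (SE 0.32, adjusted p = 0.0725, 0.0268 and 0.00645). The LK35 call was lost without LK35 C, LK35 B, DMSO C or DMSO B (log2 fold change between -1.41 and -1.19, adjusted p between 0.0654 and 0.131) and with 16 added to each intensity (-0.86, adjusted p = 0.0665), and LK34 gained a call with centring (-1.28, adjusted p = 0.0242). With LK56 ins-23 read 97.3, 66.7 and 143, all above DMSO, at 1.20 (adjusted p = 0.129). The brightest insulin-like gene, ins-35, was not called with any compound, with log2 fold changes of 0.16, -0.62, -0.45, 0.11 and 0.51 for LK32, LK34, LK35, LK38 and LK56 (SE 0.27).

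Of the genes named for a bright signal, those other than flp-6, ins-7 and ins-23 were not called against DMSO. The gene nlp-40, whose peptide is released by the intestine and drives the defecation motor program through the receptor AEX-2, read 2778, 2650.3 and 2845 with DMSO, and its log2 fold changes were 0.40, 0.14, -0.04, 0.29 and 0.53 (SE 0.26) in the order LK32, LK34, LK35, LK38, LK56. In the same order nlp-36 had 0.23, -0.29, -0.42, -0.15 and 0.27 (SE 0.18) and nlp-7 had 0.61, 0.45, 0.04, 0.45 and 0.35 (SE 0.40). For flp-24, a peptide gene of the sleep-promoting neuron ALA, they were 0.56, 0.00, -0.39, -0.04 and 0.33 (SE 0.34). None of these 4 genes was called in any of the 5 comparisons. The gene flp-10, whose peptides inhibit egg laying through the receptor EGL-6, had 1.04, -0.44, -0.89, -0.26 and 0.90 (SE 0.38). None of the 5 was called, though flp-10 was in the F test, and its LK32 arrays (359, 313 and 388) and LK56 arrays (351, 324 and 288) all lay above its DMSO arrays (199, 135 and 187).

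A few dimmer genes differed among the groups without a call against DMSO, and are given here after their values were seen. The gene nlp-81 read 76.1, 44.6 and 97.5 with LK32, 20.6, 9.43 and 29.8 with DMSO and between 4.93 and 9.43 on the 9 arrays of LK34, LK35 and LK38. The gene nlp-1 read 17.2, 19.05 and 17.3 with LK56 and 18.1, 5.86 and 38.1 with LK32, against 4.61 to 4.64 on all other arrays. The gene nlp-39 was listed at the floor on every array of DMSO, LK32 and LK56. It read 30.3, 21.7 and 10.3 with LK34, 29.5, 17.8 and 4.95 with LK38 and 4.61, 6.92 and 4.61 with LK35. The gene nlp-55 was above the floor on 3 LK32 arrays (40.9, 9.97 and 64.6), 2 LK56 arrays and 1 DMSO array, and at it on all arrays of LK34, LK35 and LK38.

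All compounds were given at the same dose and for the same time, so all 10 pairs were compared directly. The DMSO arrays entered these comparisons only through the shared estimate of the spread. LK32 and LK56 differed from LK34, LK35 and LK38 in many peptide genes. Higher and lower in LK32 were 21 and 2 of the 108 probe sets against LK34 (21.3%, beside 7% of all probe sets), 24 and 1 against LK35 (23.1%, beside 8.36%) and 17 and 1 against LK38 (16.7%, beside 6.31%). LK34 against LK56 gave 3 higher and 15 lower (9.14% of all probe sets were called), LK35 against LK56 gave 1 higher and 21 lower (9.85%), and LK38 against LK56 gave 1 higher and 17 lower (8.83%). The genes nlp-10, nlp-17, nlp-12, flp-15, flp-16, flp-7 and nlp-11 were lower, and flp-6 higher, in LK34, LK35 and LK38 in all 6 of these pairs, and each of these calls held in every alternative processing that tested the probe set. The fit of 2 groups alone, which ended many calls against DMSO, was not among these alternatives, since it was not run for pairs of compounds.

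For nlp-10 the difference was 4.88 (4.39 to 5.38) on the log2 scale for LK32 minus LK34 (95% interval, adjusted p = 1.02e-07) and -4.68 (-5.17 to -4.18) for LK38 minus LK56. For flp-15 LK32 minus LK34 was 3.52 (2.75 to 4.28), for flp-16 3.59 (2.76 to 4.42) and for nlp-81 3.21 (2.27 to 4.15). For flp-6 it ran the other way, at -2.07 (-2.96 to -1.19). LK32 and LK56 differed in 1 gene each way, flp-4 and ins-22 (0.337% of all probe sets were called), and neither call held in every alternative.

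Within LK34, LK35 and LK38 no peptide gene was called. LK34 against LK35 gave 0 of 108 calls (0.0887% of all probe sets) with 2 at an unadjusted p under 0.05, LK34 against LK38 gave 0 (0.253%) with 3, and LK35 against LK38 gave 0 (0.213%) with 2. Both LK35 and LK38 carry a phenyl triazene group. The 95% interval of LK35 minus LK38 on the log2 scale was -0.64 to 0.35 for nlp-10, -0.64 to 0.75 for nlp-17, -1.41 to 0.37 for flp-6 and -1.54 to 0.80 for ins-7. Differences inside these ranges cannot be told from none with 3 arrays a group.

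Genes that process the precursors were higher with LK32 than with LK34, LK35 and LK38, 6 of 11 in each pair. Of the 11 measured, 1 (cpd-2) was at the floor, and against DMSO the single call was the amidating enzyme gene pamn-1, which rose with LK35 (log2 fold change 1.35, adjusted p = 0.0395). The mean intensity of egl-3, the proprotein convertase of most neuropeptides, was 179 with DMSO, 308 with LK32, 255 with LK56, 108 with LK34, 77.4 with LK35 and 117 with LK38. For sbt-1, the chaperone of EGL-3, the means in that order were 441, 910.1, 721, 320.1, 256 and 344. In the direct comparison LK32 exceeded LK34 by 1.57 for egl-3 (adjusted p = 0.0267), 1.25 for egl-21 (adjusted p = 0.0144), the carboxypeptidase, and 1.52 for sbt-1 (adjusted p = 0.0107). It also did so by 1.74 for aex-5 (adjusted p = 0.00843), a second convertase, and by 2.19 for pgal-1 (adjusted p = 0.00887) and 2.40 for pghm-1 (adjusted p = 0.00713), which code for both steps of amidation. The exception was bli-4, a convertase that acts on cuticle collagens, which was lower with LK32 at -0.53 (adjusted p = 0.018).

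**Figure D4:**
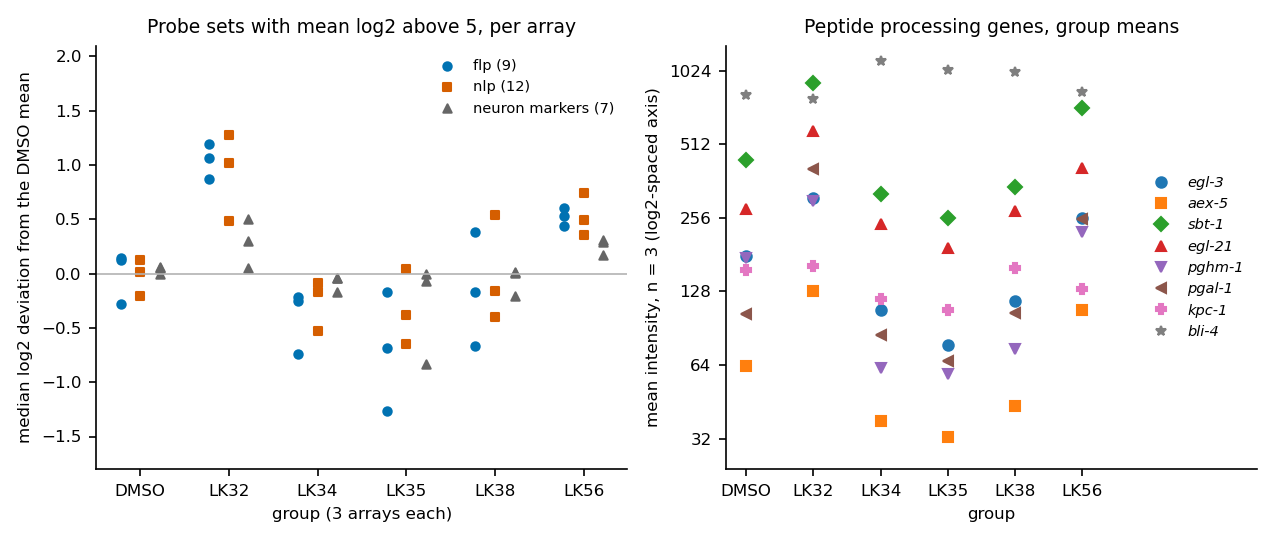
Left, the median log2 deviation from the DMSO mean on each array (points) of the 9 brighter flp, 12 brighter nlp and 7 brighter neuronal marker probe sets, by group. Right, the mean intensity (logarithmic axis, n = 3, no error drawn) of peptide processing genes in the 6 groups, where sbt-1 reaches 910.1 with LK32 and 256 with LK35. The processing genes pamn-1, cpd-1 and cpd-2 are not drawn.

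Counts in the other pairs were 6 higher in LK32 and 0 lower against LK35 and against LK38, 1 higher and 4 lower for LK34 against LK56, and 0 higher with 6 lower for LK35 and 3 lower for LK38 against LK56. Over all probe sets 6.74%, 7.84% and 6.86% were lower, and 2.4%, 2.01% and 1.97% higher, with LK34, LK35 and LK38 than with LK56. None of the 11 was called between LK32 and LK56 or within LK34, LK35 and LK38. Among genes of dense core vesicle release, 16 were measured and only snb-1, synaptobrevin, was called against DMSO. It rose slightly with LK34, LK35 and LK38 (log2 fold change 0.44, 0.35 and 0.39, adjusted p = 0.0084, 0.0326 and 0.0168).

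Receptor genes mostly lay at the floor. The counts against DMSO below are to be read beside the shares of all probe sets called with each compound, given above. Of 99 neuropeptide receptor genes measured 80 lay at the floor on every array and 0 were called against DMSO. The glycoprotein hormone receptor gene fshr-1 was higher with LK32 than with LK34 by 1.51 (adjusted p = 0.00762). Among 28 peptidase genes, the neprilysin gene nep-17 fell with LK34 and LK35 (-1.29 and -1.85, adjusted p = 0.0488 and 0.00608). Of 18 genes of insulin-like signalling, 3 at the floor with daf-2 among them, 0 were called against DMSO. Between compounds, daf-16 and sgk-1 were higher and daf-18 lower with LK32 than with LK35. Of 14 genes known to respond to DAF-16, 4 were called with at least 1 compound. With LK34 2 rose and 1 fell (over all probe sets 2.25% and 1.39%), and with LK35 1 rose and 1 fell (1.71% and 1.88%). With LK38 0 rose and 1 fell (2.19% and 1.58%), and with LK56 1 rose and 0 fell (0.767% and 0.0222%). The small heat shock gene hsp-12.6 fell with LK34, LK35 and LK38 (-2.74, -2.57 and -2.42, adjusted p = 0.0105, 0.0159 and 0.0209), while the lysozyme gene lys-7 rose with LK34 (2.07, adjusted p = 0.00857). The others were dod-3, which rose with LK34 and LK35 (0.96 and 0.74), and the catalase gene ctl-2, which rose with LK56 (0.89). Between compounds, dod-3 and icl-1 were lower with LK32 and with LK56 than with LK34, LK35 and LK38. With LK32, sip-1 was lower than with LK34 and LK35, nnt-1 than with LK35 and LK38, lys-7 than with LK34 and mtl-1 than with LK38. With LK56, sip-1 was lower than with LK34, LK35 and LK38, and lys-7 than with LK34. Both ctl-2 and hsp-12.6 were higher with LK56 than with each other compound, and dod-6 was higher with LK56 than with LK35. The gene sod-3 lay at the floor on 17 arrays. Of 6 further peptide precursor genes outside the 3 families, 0 were called.

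Markers of the tissues moved beside the peptide genes. Of 18 neuronal marker genes, 2 of them (rgef-1 and sng-1) at the floor throughout, only snb-1 was called against DMSO, and the 7 brighter ones had median log2 differences of 0.26, -0.06, -0.56, -0.07 and 0.28 for LK32, LK34, LK35, LK38 and LK56. Between compounds, egl-3 and egl-21 were higher with LK32 than with LK34, LK35 and LK38, ric-19 was higher with LK32 than with LK35, and rab-3 was lower with LK34, LK35 and LK38 than with LK56, as were egl-3, egl-21 and ric-19 with LK35. In contrast snb-1 was higher with LK34 than with LK32, and higher with LK34, LK35 and LK38 than with LK56. The list shares egl-3 and egl-21 with the processing list and snb-1 and others with the vesicle list. The summed intensity of the neuronal list was 4226 to 4453 with DMSO, 4655 to 5715 under LK32, 5073 to 5376 under LK34, 4717 to 5072 under LK35, 4519 to 5708 under LK38 and 4393 to 4963 under LK56. On array LK35 A the median deviation from the DMSO mean was -0.83 for the neuronal genes, -1.27 for the 9 brighter flp and -0.65 for the 12 brighter nlp probe sets, and on LK35 B it was 0.00, -0.17 and 0.04.

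Intestinal markers, 10 genes, had medians of 0.73, -0.31, -0.68, -0.28 and 0.47 in the same order, and 11 muscle probe sets 0.49, -0.37, -0.70, -0.22 and 0.39. The intestinal sums ran from 46769 to 54383 with DMSO, 57747 to 63650 under LK32, 33316 to 50269 under LK34, 27293 to 39657 under LK35, 29340 to 51282 under LK38 and 56195 to 60684 under LK56. Against DMSO ifb-2 and pept-1 were lower with LK34, LK35 and LK38, asp-1 was lower with LK35, elt-7 was higher with LK32 and lower with LK35, and act-5 was higher with LK38. With LK32, 5, 6 and 6 of the 10 intestinal genes were higher than with LK34, LK35 and LK38, and 0 lower. Of the 11 muscle probe sets, 2, 8 and 2 were higher and 0 lower, beside 4.52%, 6.2% and 4.4% of all probe sets higher. With LK34, LK35 and LK38, 4, 6 and 5 intestinal genes and 1, 5 and 1 muscle probe sets were lower than with LK56. Over all probe sets 6.74%, 7.84% and 6.86% were lower. Only act-5 was higher, with LK38. Of 32 sperm probe sets 28 fell with LK34, 28 with LK35 and 27 with LK38. Of 10 oocyte and germ line genes 4 rose with LK34 and with LK35. Single calls against DMSO were col-19 among 8 hypodermal genes (lower with LK34), mup-2 among the muscle probe sets (lower with LK35) and cup-4 among 6 probe sets of glia and coelomocytes (higher with LK34). The part of these tissue-wide shifts in the values of the peptide genes was not tested.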

How the data were processed

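RNA of whole young adult worms, 3 arrays for each of 6 groups, had been hybridised to Affymetrix arrays and normalised by the authors with GCRMA, which subtracts background estimated from probe sequence and scales all arrays together. The version was not given in the sources used here. Each deposited value is a linear intensity, with a lowest value of 4.605 and a highest of 58200.7. All 18 arrays were used, and groups came from the sample labels.

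Of 22625 probe sets, 77 controls were left out. Platform annotation gave 20766 of the others 1 gene, 887 several and 895 none, and all 108 peptide probe sets kept their symbols in the RefSeq table. A linear model with a mean for every group was fitted to the log2 intensities (limma 3.58.1 under R 4.3.3, residual df 12). P-values were Benjamini-Hochberg adjusted over all 22548 probe sets and called under 0.05. A fold change is the ratio of geometric means, and errors of log2 fold changes are the fit's standard errors. The script was tested on simulated data. Figures were drawn with matplotlib 3.10.9 under Python 3.11.15.

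Named genes were peptide genes called with at least 1 compound, the 3 brightest of each family and the 3 of lowest F test p in each family, 20 in all. The peptide genes and the gene lists were chosen with earlier results of these data known. Alternatives covered normalisation, centring, a filter on dim probe sets, 16 added before the logarithm, a 2-fold rule, array weights, the replicate letter as a block, probe sets of several transcripts, fits of a compound and DMSO alone, and leaving out each array. The number of arrays limits the precision.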

Additional observations from a re-analysis of the deposited data

How the results depend on the processing

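Over the alternatives, 9 of the 35 calls of named genes against DMSO were kept in all that tested the probe set. Of 545 values 120 lost the call, and 0 reversed. The 2-fold rule left the counts against DMSO as they were and gave 23 in place of 25 in the F test. Rises with LK32 (7) became 11 with centring, 28 with array weights, 4 with the replicate block and 0 with 2 groups alone. Rises with LK56 (5) became 2 with quantile normalisation, 3 with the offset, 15 with array weights, 3 with the replicate block and 2 with 2 groups alone. Between groups, arrays of the same letter A, B or C were on average hardly more alike (mean r 0.033, from -0.46 to 0.79) than others (-0.017, from -0.76 to 0.75). Of 18 arrays, 7 correlated best with their own letter. These wide ranges cannot tell whether the letters pair the arrays, so the block says nothing of weaker effects. It moved no other count by over 1.5 times, and it was not run for the F test or for LK35 against LK38.

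With array weights LK34 gave 6 higher and 12 lower, LK35 3 and 14, and LK38 10 and 12, while 49 members were called in the F test, 11 between LK35 and LK38, and 52 (32 in the fit reported above) in at least 1 of the other 9 pairs. Without probe sets of several transcripts, fewer probe sets were tested: LK34 gave 1 higher and 3 lower, LK35 and LK38 each 0 and 4, the F test 16 and the 9 pairs 20. With only the 6 arrays of the 2 groups, LK34 gave 1 and 3, LK35 0 and 3, and LK38 0 and 2. With brighter probe sets alone LK38 gave 3 higher. With the arrays LK38 C, LK32 C and LK35 A left out, a choice made after seeing the data, the rises numbered 4 under LK34, 2 under LK35, 9 under LK38 and 12 under LK56, and 1 member differed between LK35 and LK38. The cause of these shifts was not tested.

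Leaving out 1 array gave 4 to 15 rises with LK32 and 2 to 5 with LK56. It gave 1 to 3 rises and 3 to 6 falls with LK34, 1 to 2 rises and 3 to 6 falls with LK35, and 1 to 7 rises and 4 to 7 falls with LK38. The F test then called 18 to 27, LK35 against LK38 0 to 1, and the other 9 pairs 25 to 34.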
